A study of Mus musculus with 14 samples.

Results

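N6-methyladenosine (m6A) peaks on genes with a single exon, once overlapping exons were merged, were examined in mouse embryonic stem cells (mESCs). MeRIP-seq, in which fragmented RNA is pulled down with an antibody against m6A and sequenced beside the input RNA, had given 17693 peaks in WT cells. The overlapping exons of each gene were merged, which left 20893 of 52459 genes with 1 exon, and a peak was taken when its summit lay in a gene of this kind, over 300 bp from the 5' end, and in no exon of a gene with several exons. This gave 523 peaks (2.96% of the WT peaks) on 412 host genes. A merged exon can bridge an intron that only some transcripts keep. Host genes are thus single-exon by this rule, and whether each is intronless was not tested. The rule used gene models and WT summit positions, not the strength of a peak or any value from the mutant. A further 107 summits in single-exon genes lay within 300 bp of the 5' end and were left out.

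All cells were E14Tg2a mESCs, a feeder-independent line grown with serum and LIF. WT cells were compared with METTL14 R255K cells, in which the endogenous METTL14 gene had been edited with CRISPR so that the protein carries the R255K change, lysine in place of an arginine, and which descend from a single picked colony, so that genotype and clone cannot be told apart. For MeRIP-seq there were 2 IP and 2 input libraries of each genotype, made from total RNA, with ribosomal RNA removed from the input, and 1 peak list per genotype. For RNA decay, WT and R255K cells were held in 5 µg/ml actinomycin D, which blocks transcription, for 0, 4 or 8 h, and 1 mRNA library was sequenced per genotype and time.

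m6A is laid down on nascent mRNA by a METTL3 and METTL14 complex, mostly at adenosines within short motifs such as GGAC. In mRNAs with several exons the mark concentrates in long internal exons and in last exons near the stop codon, because exon junction complexes keep the methyltransferase away from the vicinity of splice junctions. A transcript from an intronless gene carries no exon junction complex from splicing. Many intronless genes encode short-lived regulators such as immediate early and developmental transcription factors, and m6A is recognised by YTH proteins that direct cytoplasmic transcripts to degradation.

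The strongest of these peaks on protein-coding genes are shown first by sequence, because they mark where the antibody signal was highest over its background. Each line gives 25 bases from mm10 on the strand of the gene, centred on the A of the GGAC nearest to the summit, with GGAC in capitals.
Klhl34, chrX:157820170-157820194, plus strand: tcaagtggcgGGACtcacgccaggt
Rprm, chr2:54084619-54084643, minus strand: tcagcactggGGACagcttgagagg
Cd248, chr19:5070450-5070474, plus strand: tagaagaaaaGGACttgctttggac
Omp, chr7:98144550-98144574, minus strand: gactgagactGGACaggaacacctt
Otud1, chr2:19658963-19658987, plus strand: ctgtgtacggGGACcagagcctgca
Cdk5r2, chr1:74856175-74856199, plus strand: gccaagcactGGACtatgaacttgg
Jrkl, chr9:13244389-13244413, minus strand: gcataccaaaGGACtggaaaatgtg
Gas1, chr13:60176889-60176913, minus strand: cgcggaactcGGACaaacttttcca

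The next sites belong to transcription factors, Wnt receptors and the imprinted gene Ndn, whose RNA decay is described further on.
Jun, chr4:95050127-95050151, minus strand: tacacaagatGGACtgggttgcgac
Jund, chr8:70700097-70700121, plus strand: gcgcatgcgcGGACtagctgcggtg
Ier2, chr8:84661652-84661676, minus strand: cccgccctagGGACtgggaagtgac
Cebpb, chr2:167690094-167690118, plus strand: ccgggtttcgGGACttgatgcaatc
Sox2, chr3:34650882-34650906, plus strand: accagcgcatGGACagctacgcgca
Sox12, chr2:152396878-152396902, minus strand: gcagtgccctGGACcgtgacccgga
Pou3f1, chr4:124658324-124658348, plus strand: gggcgcacacGGACacgcacacgga
Fzd7, chr1:59484914-59484938, plus strand: aagacttgcaGGACgatgctaactg
Fzd10, chr5:128602617-128602641, plus strand: gcctcaacatGGACtactggaagat
Ndn, chr7:62349818-62349842, plus strand: catgtggaatGGACtgatttgaact

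The last set holds a pair of strong WT peaks that had no counterpart in R255K cells, and a nuclear noncoding RNA.
Rgs9bp, chr7:35585114-35585138, minus strand: gcggctccgcGGACactcaggacct
9130023H24Rik, chr7:128235638-128235662, minus strand: cttggcaaaaGGACcggagaatttg
Malat1, chr19:5801413-5801437, minus strand: attttgcattGGACttgagctgagg

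GGAC lay within 100 bp of the summit, on the strand of the host gene, for 403 of the 523 peaks (77.1%, 95% Wilson interval 73.3 to 80.5). On the opposite strand of the same windows the share was 44.9%, and in 768 windows of the same length (201 bp) centred 500 bp to either side of the summit, where the exon reached that far, it was 56.0%. Peaks in last exons of genes with several exons held GGAC in 78.5% of their windows. There the share was 45.7% on the opposite strand and 46.6% in windows 500 bp away, lower than the 56.0% on single-exon genes. The longer motif GGACT was found at 39.4% of the summits, against 14.9% on the opposite strand. The A of the nearest GGAC was 20 bp from the summit at the median, and 261 of the windows held GGAC more than once. All intervals in the text cover counting error only. Peaks on protein-coding host genes held GGAC in 82.5% of cases and peaks on pseudogenes in 61.1%. GGAC was at 84.0% of the peaks that were also called in R255K cells and at 68.1% of those that were not.

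The host genes comprised 268 protein-coding genes with 361 peaks, 87 pseudogenes with 95 peaks, 55 noncoding RNAs with 65 peaks, and both mitochondrial ribosomal RNAs. Most host genes, 321 of 412, carried 1 peak, 75 carried 2, 12 carried 3 and 4 carried 4. The genes with 4 peaks were Klhdc7a, a kelch-domain gene, Marveld1, the imprinted noncoding RNA Peg13, and Sowahb. The summits lay 1109 bp from the 5' end at the median, and the peaks were 512 bp wide. Within the span of a gene with several exons, outside its exons, lay 128 of the summits, and for 72 of these such a gene was on the opposite strand. The library kit keeps no strand, so the RNA of the host gene and of a surrounding gene cannot be told apart there. Named peaks of this kind include some on Omp, Cdk5r2, Gas1, Galnt4, Hspa1a, Sox1 and Sox2. Others are on Ndn, Zrsr1, Mkrn3, Peg13 and Kcnq1ot1. The same limit holds for the values of these genes below.

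At the 300 bp limit, the 5 summits just inside were 301 to 310 bp from the 5' end, had fold enrichments between 4.72 and 9.98, and 2 of them, on Fam43a and Sox3, were also called in R255K cells. The 5 just outside were 284 to 299 bp away, with fold enrichments between 1.55 and 28.0, and 3 of them were called again. One of the latter was a second Klhl34 peak.

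Single-exon protein-coding genes differed widely in whether they carried such a peak, by length and by expression. Of 1577 such genes, 268 (17.0%) carried at least 1. Among the 305 with 20 counts or more in WT cells at 0 h the share was 67.9% (62.4 to 72.9), and among the 1272 below it was 4.796% (3.75 to 6.11). Within the expressed genes, the share was 6 of 50 genes under 1 kb, 64.3% of 84 genes of 1 to 2 kb, 84.2% of 114 genes of 2 to 4 kb and 89.5% of 57 genes of 4 kb or more. Per kilobase, expressed genes of 1 to 2 kb carried 0.465 peaks, those of 2 to 4 kb 0.424 and those of 4 kb or more 0.266. Genes under 1 kb have little exon left beyond the first 300 bp, and they carried 0.190 per kilobase.

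In WT cells the peaks on single-exon genes were enriched 7.80-fold over the local background at the median (7.42 to 8.38). Peaks in last exons had a median of 6.53, peaks in internal exons over 400 bp long a median of 6.18, and all WT peaks a median of 6.23. Peaks on protein-coding single-exon genes had a median of 8.41, those on noncoding RNAs 7.98 and those on pseudogenes 6.51. The median −log10 q was 22.6 on single-exon genes and 29.6 in last exons, the opposite order.

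Along protein-coding single-exon genes the peaks reached farther into the coding sequence than in last exons. The coding sequence held 230 of 361 summits (63.7%, 58.6 to 68.5), the 3' UTR 117 and the 5' UTR 12. In last exons of protein-coding genes, the coding sequence held 37.9% of 7036 summits and the 3' UTR 61.4%. On single-exon genes 33.2% of the summits (28.6 to 38.3) were no farther than 200 bp from a stop codon, and in last exons 48.4% (47.3 to 49.6). The coding sequence more than 200 bp before the stop codon held 44.3% and 17.98%, respectively. The length of coding sequence that each kind of exon offers was not corrected for. Fold enrichment was similar along single-exon genes, with medians of 8.40 in coding sequence and 8.38 in 3' UTRs.

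**Figure D1:**
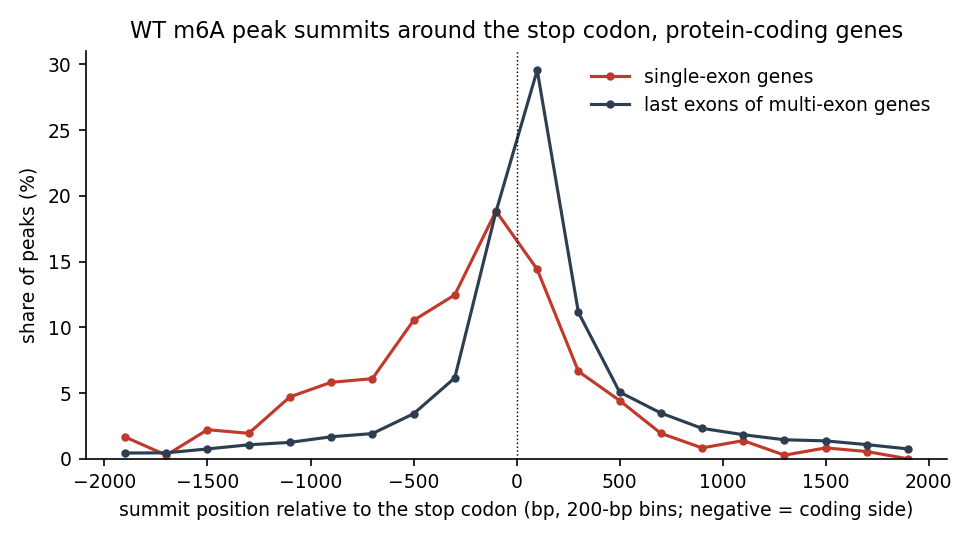
Share of WT peak summits (vertical axis, %) in 200-bp bins around the stop codon (horizontal axis, bp; negative values lie on the coding side) for protein-coding single-exon genes (red, 361 peaks) and last exons of protein-coding genes with several exons (dark, 7036 peaks). The last-exon curve peaks just after the stop codon at 29.5%, where single-exon genes have 14.4%, and the single-exon curve is the higher one from 200 to 600 bp before it (12.5% and 10.5% against 6.15% and 3.43%).

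The comparison with R255K cells asks which of these peaks remain when METTL14 cannot be methylated at this arginine. Kept peaks were those WT peaks with an overlap of 1 bp or more with a peak called in R255K cells, and the others were called lost. Of the 523 peaks on single-exon genes, 294 were kept (56.2%, 51.9 to 60.4), beside 43.6% of all WT peaks. They overlapped 289 separate R255K peaks. Last-exon peaks were kept in 51.6% of cases, which is 4.64 percentage points fewer (0.203 to 8.98), and peaks in long internal exons in 52.1%, a difference of 4.09 points whose interval, −0.486 to 8.58, includes 0. Read from the other genotype, 350 of the R255K peaks lay on single-exon genes by the same rule, and 91.7% of these overlapped a WT peak, beside 86.8% of all R255K peaks. There was 1 list per genotype, so none of these shares carries a replicate error, and no p-value is given across peaks.

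The kind of host gene separated kept from lost peaks more than the comparison with last exons did. On protein-coding genes 247 of 361 peaks were kept (68.4%, 63.5 to 73.0), on noncoding RNAs 25 of 65 (38.5%, 27.6 to 50.6) and on pseudogenes 20 of 95 (21.1%, 14.1 to 30.3). The pseudogene peaks were also the weakest, with a median −log10 q of 9.68 against 34.5 on protein-coding genes. Within strength classes the pseudogene peaks no longer stood below last-exon peaks beyond their intervals, and no class held more than 42 of them. The authors kept only uniquely aligned reads, and a processed pseudogene shares much of its sequence with its parent gene, so the counts and peaks on pseudogenes are uncertain.

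Strength mattered for every class, so the shares were set side by side within 4 classes of equal size by the −log10 q of all WT peaks, with borders at 8.34, 18.7 and 48.4. On single-exon genes the kept share was 17.9% of 112 peaks in the weakest class, 31.5% of 124 in the next, 61.4% of 127 in the third and 98.1% of 160 in the strongest. In last exons these shares were 9.32%, 17.6%, 49.4% and 92.5%. The difference was between 5.62 and 13.8 percentage points in favour of single-exon genes, and its interval lay above 0 in each of the 4 classes. Width was not matched, and a kept peak needed only 1 bp of overlap. Peaks on single-exon genes were wider than last-exon peaks, with medians of 1082.5 against 647 bp in the strongest class and 571 against 413 bp in the third. In the second class the medians were closer, 327 against 310 bp. The part of width in these differences was not tested within classes. For protein-coding single-exon genes alone the difference from last-exon peaks was between 6.81 and 19.99 points. Against long internal exons it was between 6.75 and 10.7 points for all single-exon genes, with an interval of −0.702 to 17.0 in the third class.

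**Figure D2:**
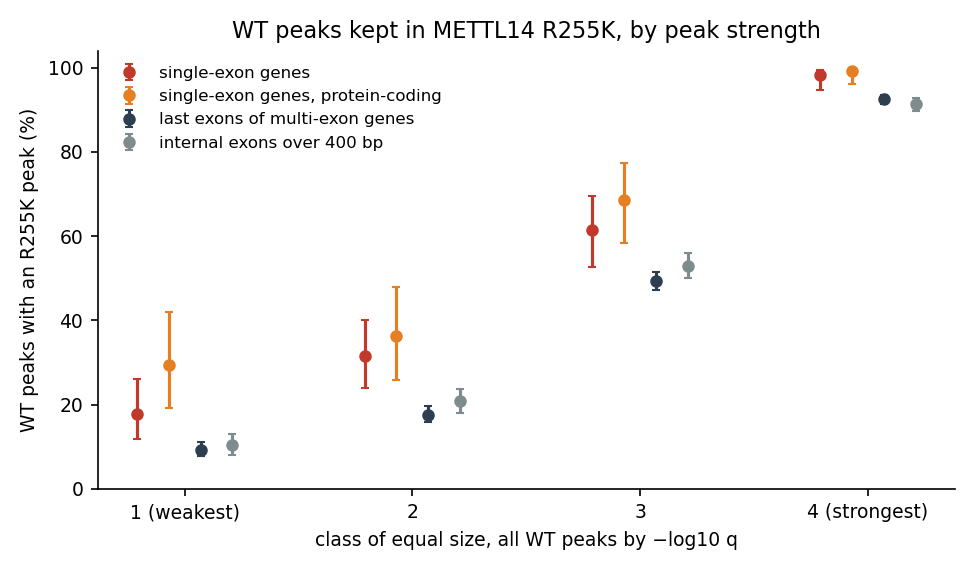
Share of WT peaks with an overlapping R255K peak (vertical axis, %) in 4 equal classes of all WT peaks by −log10 q (horizontal axis, weakest to strongest) for peaks on single-exon genes (red), those on protein-coding single-exon genes (orange), last-exon peaks (dark) and peaks in internal exons over 400 bp (grey). Points are shares and bars 95% Wilson intervals. All classes climb with strength, from 17.9% to 98.1% on single-exon genes and from 9.32% to 92.5% in last exons.

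Expression of the host gene also went with the kept share. On host genes with 200 counts or more in WT cells at 0 h, 81.1% of 169 peaks were kept (74.5 to 86.3), against 56.4% of 4974 last-exon peaks on genes of that class (55.0 to 57.7). In this class the peaks on single-exon genes were also stronger, with a median −log10 q of 74.7 against 40.1. Strength was not matched within the classes of expression. With 20 counts or more but under 200 the shares were 51.7% on single-exon genes and 44.8% in last exons. With 3 to 19 counts they were 40.8% and 32.8%, and with 0 to 2 counts 27.8% and 28.5%. The intervals overlapped in all 3 of these classes. On protein-coding single-exon genes, 67.8% of peaks were kept in the coding sequence and 69.2% in the 3' UTR. Within 200 bp of the stop codon on either side the kept share was 77.5% (69.2 to 84.1), and in coding sequence farther before it 64.4% (56.7 to 71.4), with intervals that overlap. In last exons these were 53.1% and 58.1%, the opposite order.

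Kept peaks were mostly lower in the R255K list. Of the 294 kept peaks, 205 (69.7%, 64.2 to 74.7) had a lower fold enrichment in R255K than in WT cells, beside 70.3% of all kept WT peaks, and the median log2 ratio was −0.34. Their median fold enrichment was 9.96 in WT and 6.82 in R255K cells. Among last-exon peaks 76.3% were lower and the median log2 ratio was −0.40. Fold enrichment is relative to the background of each list, so these values do not give the fraction of transcripts that carry m6A.

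**Figure D3:**
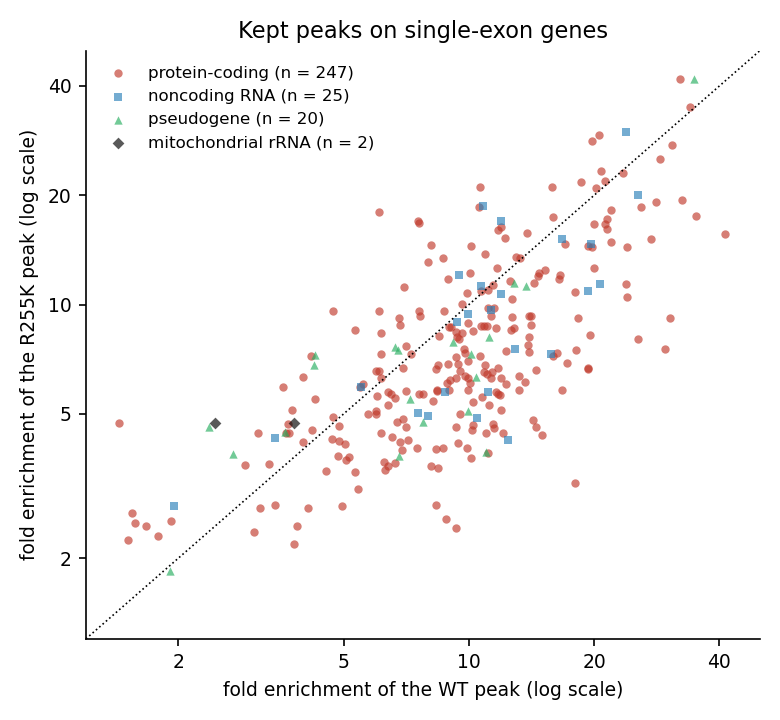
Fold enrichment of the 294 kept peaks in WT cells (horizontal axis, log scale) and of the overlapping peak in R255K cells (vertical axis, log scale), each point being 1 peak, coloured by the kind of host gene, with the line of equal values dotted. Most points, 205, lie below the line, and the 7 mitochondrial peaks, with WT fold enrichments of 1.44 to 3.79, lie above it.

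The strongest peaks on protein-coding genes were all kept, and 10 of these 12 were lower in R255K cells. They were picked by their WT fold enrichment, which by itself favours a kept peak and a lower value in the other list. Among all 247 kept peaks on protein-coding single-exon genes, 71.3% were lower. The highest of the 12 was on Klhl34, a kelch-like gene, in the coding sequence 184 bp before the stop codon. It had a fold enrichment of 41.3 in WT and 15.7 in R255K cells. Rprm, which encodes reprimo, a mediator of cell cycle arrest, had a peak in its 3' UTR with values of 34.0 and 34.9, practically equal in both lists. The stromal membrane glycoprotein gene Cd248 had 32.4 and 19.4, with a summit 36 bp past its stop codon. Fzd8, a Wnt receptor, had 35.2 in WT and 17.5 in R255K cells. Gas1, a coreceptor for hedgehog ligands, had 25.9 and 18.6. On the log scale the widest drops among these 12 were on Otud1, which encodes a deubiquitinase, from 29.7 to 7.52, and on Itpripl2, from 30.3 to 9.21. Cdk5r2, an activator of the kinase Cdk5, had 28.8 and 25.1, with its summit 25 bp before the stop codon. Some of the 12 lay on genes with few RNA counts. At 0 h, WT and R255K cells had 16 and 4 on Klhl34, 4 and 8 on Cd248, 8 and 4 on Klhdc7a, and 13 and 23 on Omp. The others had more in WT cells, up to 285 on Otud1. How stable the fold enrichment is on such genes was not tested.

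The strongest lost peaks were few and mixed. Gm9776, a noncoding RNA that starts beside another gene's promoter, had the highest fold enrichment among them, 22.9. Rgs9bp, whose protein anchors a regulator of G protein signalling in photoreceptors, had 16.9 in its coding sequence, and 9130023H24Rik had 16.5 in its 3' UTR. Galnt4, a glycosyltransferase that starts mucin-type chains, had 15.6. By q value the leading lost peak was on Ubqln2, which encodes a ubiquitin-binding shuttle protein for the proteasome, with a −log10 q of 73.6 at a fold enrichment of only 4.83. No peak that overlapped any of these was called in R255K cells. A missing call does not show that the antibody signal was absent.

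On genes with several peaks, neighbouring peaks often went different ways. Of 91 such genes, 27 kept every peak, 21 kept none and 43 kept some. Klhdc7a kept 1 of 3 peaks in its 3' UTR and the peak in its coding sequence, which went from 27.4 to 15.2. Sowahb kept 3 of 4 peaks, of which the strongest fell from 23.8 to 11.4. Peg13 kept 3 of 4, with 20.6 and 11.4 at the strongest and 9.36 and 8.98 at the next. It had 0 counts in every WT actinomycin D library, against 77, 10 and 10 in the mutant ones. Its summits lay within the span of a gene with several exons, and whether the peaks came from that gene was not tested. Marveld1 kept 1 of 4.

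Named gene families were then followed through both lists. The AP-1 and immediate early list held 9 single-exon genes, and all 9 carried peaks, 11 in all, of which 10 were kept. Jun, a subunit of the AP-1 factor, had a 3' UTR peak with a fold enrichment of 21.2 in WT and 16.6 in R255K cells. Its relative Jund had 5.55 and 6.04, with a summit 5 bp past the stop codon. Cebpb, a leucine-zipper factor, had 15.3 and 12.5, and the immediate early gene Ier2 had 6.38 and 5.74. The small GTPase gene Rhob had a coding peak that went from 10.2 to 5.38. The lost peak was the weaker of a pair on Ier5l, with 2.50.

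Sox factors, which bind DNA through an HMG box, carried peaks on 7 of 8 single-exon genes, 11 in all, of which 8 were kept. Sox2, part of the core pluripotency network, had a broad coding peak with a low fold enrichment of 3.57 in WT and 5.93 in R255K cells. Sox1, a neural factor, had 20.2 and 20.9. Sox4 had 11.6 and 5.75 in its 5' UTR, Sox11 had 9.96 and 6.28, and Sox12 had 7.63 and 9.31. The family thus held kept peaks that were lower in R255K cells, 5, and higher, 3.

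All 6 single-exon Frizzled receptors, which bind Wnt ligands, carried peaks, 10 in all, of which 5 were kept. Fzd9 had 23.5 in WT and 23.0 in R255K cells at its stronger peak and lost the weaker one. Fzd10 had 16.5 and 12.1, and Fzd7 had 11.7 and 16.02. Both peaks of Fzd2 were lost. The POU class III factors, regulators of neural progenitors, carried 5 peaks on 3 of 4 genes, of which 3 were kept, and Pou3f1 had the strongest, 24.0 and 10.5. Forkhead factors carried 12 peaks on 7 of 13 genes, of which 5 were kept. Only 3 of these 13 genes had 20 counts or more in WT cells at 0 h, and Foxd3, a pluripotency-associated factor among them, had 14.1 and 8.80.

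Imprinted intronless genes carried 13 peaks on 7 of 8 genes, of which 9 were kept. Mkrn3, which encodes a RING finger protein, had 13.95 and 9.29, Ndn, the necdin gene, had 13.9 and 7.38 in its 3' UTR, and Zrsr1, a retrotransposed splicing factor gene, had 9.89 and 4.02. Kcnq1ot1, the antisense noncoding RNA that silences genes around Kcnq1, had a single peak of 7.401, which was lost. The nuclear noncoding RNAs Neat1, the scaffold of paraspeckles, and Malat1 kept their peaks, with 7.53 and 5.04 for Neat1 and 3.42 and 4.29 for Malat1. The inducible heat shock genes Hspa1a and Hspa1b had 4 peaks, 1 of them kept. They are near-identical copies, so reads between them are uncertain.

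Other intronless families carried few peaks or none. Replication-dependent histone genes, whose short mRNAs end in a stem-loop in place of a poly(A) tail, carried 3 peaks on 2 of 65 single-exon genes, both of them linker histones, Hist1h1c and Hist1h1d. Only 14 of the 65 genes had 20 counts or more in WT cells at 0 h. These counts come from mRNA libraries, and how far such libraries hold RNA without a poly(A) tail was not tested. They therefore do not show how many histone genes were expressed. The median length over all 65 genes was 524 bp, and summits within 300 bp of the 5' end were left out. All 3 peaks were kept with higher values in R255K cells, for example 7.59 and 9.62 in the 3' UTR of Hist1h1c. None of the 268 single-exon olfactory receptor genes carried a peak, and 0 of them had 20 counts in WT cells at 0 h. No insulin receptor substrate gene was a single-exon gene in the merged models. The mitochondrial genome carried 7 peaks with low fold enrichments of 1.44 to 3.79, at −log10 q values of 5.31 to 101. All 7 were kept, by 5 separate R255K peaks, and all 7 had higher values in R255K cells, for example 3.79 and 4.73 on the ribosomal RNA mt-Rnr1. Ribosomal RNA was removed from the input but, by the study's description, not from the IP, and the part of this in the mitochondrial peaks was not tested.

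The actinomycin D libraries held between 13812160 and 18813640 counts each. The counts on Mettl14 were 681, 376 and 232 at 0, 4 and 8 h in the WT libraries and 299, 280 and 209 in the mutant ones, which does not test a base change. The 9 stem cell markers summed to 5963 CPM (counts scaled to the library total) in WT and 4412 in R255K cells at 0 h, and none was at 0. Of these, Utf1 was higher in R255K cells, 713 against 465 CPM, and the others were lower, for example Tfcp2l1 with 159 against 563. The 6 fibroblast markers summed to 5.45 and 27.3 CPM, with 2 and 1 of them at 0, and 3 markers of 2-cell-like cells summed to 0 and 5.56. The primitive and definitive endoderm (30.1 and 33.6) and mesoderm lists (1.89 and 5.63) were low in both. In the ectoderm list (90.7 and 62.7) members went both ways, with Sox1 at 64.8 and 8.50 CPM and Nes at 11.8 and 41.0. The part of these lists in the decay values was not tested. In such bulk samples fewer cells of a type and less RNA per cell cannot be told apart.

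Decay was followed on the 235 host genes with 20 counts or more at 0 h in both genotypes, as the log2 ratio of CPM at 8 h to 0 h with 0.5 counts added. CPM are relative to the RNA that is left, and no spike-in was present, so the median of all 12321 genes tested moved too, to −0.74 in WT and −0.14 in R255K cells. Host transcripts had declined far beyond this in WT cells, to a median of −1.995 at 4 h and −3.05 at 8 h, which differs from the median of all genes at 8 h by −2.31. In R255K cells they had declined to −0.80 at 4 h and −1.22 at 8 h, a difference of −1.08 from all genes. Over 2-fold lower at 8 h were 182 of the 235 host genes in WT cells (77.4%), beside 45.2% of all genes, and 135 in R255K cells (57.4%), beside 22.9%. With 1 library per genotype and time, none of these differences has a replicate check.

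Per gene, the 8 h ratio was higher in R255K than in WT cells by a median of 1.26 log2 units on host genes and 0.50 on all genes, a gap of 0.75. It was over 1.5-fold higher on 153 host genes (65.1%), beside 47.3% of all genes, and over 1.5-fold lower on 14, beside 7.39%. Genes with several exons and a WT peak were close to the host genes in this, with a median of 0.97 and 63.6% of genes over 1.5-fold higher. TMM scaling moved the all-gene median of this difference to 0.012, and then 131 host genes were over 1.5-fold higher and 36 lower, beside 33.0% and 27.5% of all genes. The gap between host genes and all genes is the same under any scaling. It was 0.19 from 4 to 8 h, a comparison chosen after seeing the data that leaves out both 0 h libraries.

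Single-exon genes without a peak did not decay in this way. The 623 single-exon genes without a WT peak, many of them pseudogenes, had a WT median of 0.67 and an R255K median of 0.14. For the 62 protein-coding ones these were 0.18 and 0.0083. Genes with several exons and a WT peak, 7113 in all, had −1.66 and −0.41. Among host genes, the 196 protein-coding ones had −3.26 and −1.44, the 15 noncoding RNAs −2.59 and −1.07, and the 22 pseudogenes −0.0023 and 0.13. Host genes with 1 peak had −2.80 and −1.11, those with 2 peaks −3.33 and −2.05 and the 11 with 3 or 4 peaks −3.53 and −0.85, so that the order by number of peaks in WT cells was not that in R255K cells. Peak presence, expression and gene function were not separated in these groups.

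**Figure D4:**
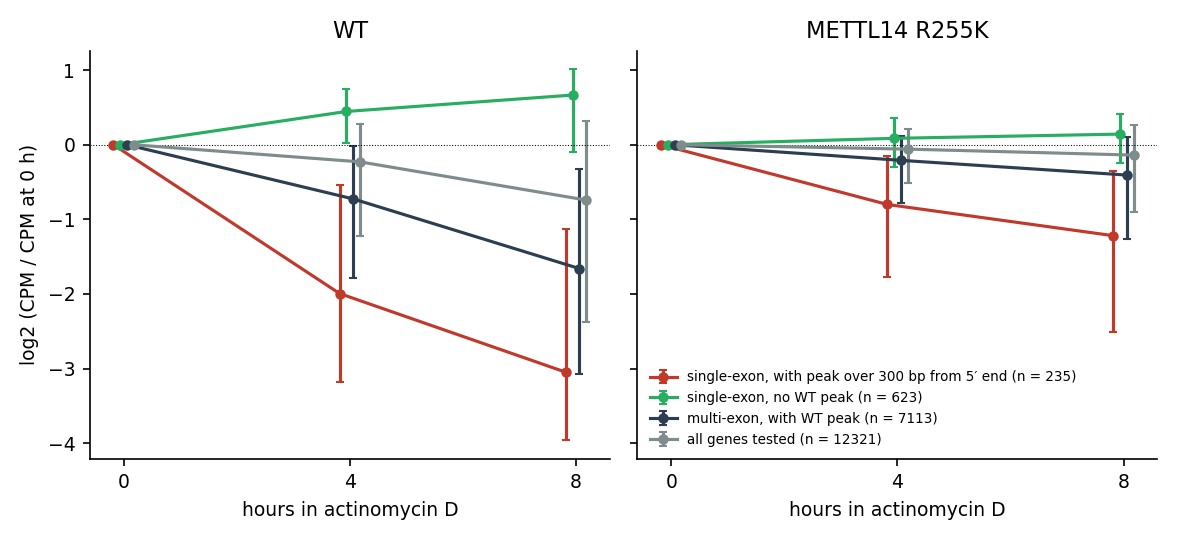
Log2 ratio of CPM to 0 h (vertical axis) over 0, 4 and 8 h in actinomycin D (horizontal axis) in WT (left) and METTL14 R255K cells (right), for host genes of the peaks (red, 235), single-exon genes without a WT peak (green, 623), genes with several exons and a WT peak (dark, 7113) and all genes tested (grey, 12321). Points are medians over genes and bars run from the lower to the upper quartile; host genes end at −3.05 in WT and −1.22 in R255K cells, the lowest median of the 4 groups in both.

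Host genes that kept or lost peaks in the mutant had close decay medians. Protein-coding host genes that kept every peak, 141, had a WT median of −3.24 and an R255K median of −1.42. For the 55 that had lost at least 1 these were −3.28 and −1.52. The R255K minus WT difference was 1.30 and 1.34, respectively. At 0 h, before transcription was blocked, host genes as a group stood at the same level in both genotypes, with a median log2 ratio of R255K to WT of 0.0046 on 317 host genes and 0.09 on all 14643 genes. Over 1.5-fold higher in R255K cells were 87 host genes (27.4%), beside 25.5% of all genes, and over 1.5-fold lower 95 (30.0%), beside 20.4%.

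Individual host genes varied in how far the 8 h ratio differed between genotypes. The differences below are on CPM, and TMM would lower each by 0.49. Jund went from 47.3 CPM at 0 h to 15.9 at 4 h and 3.55 at 8 h in WT cells, and from 48.8 to 33.0 and 27.1 in R255K cells. The level was alike at 0 h and far higher in R255K cells at 8 h, with a difference of 2.87 log2 units in the 8 h ratio (2.43 to 3.32 by counting error). Ier2 had 305, 24.96 and 21.1 CPM in WT and 310, 21.6 and 16.7 in R255K cells. It thus lost nearly all of its transcript in both, with a difference of −0.36 (−0.59 to −0.12), or −0.85 under TMM. Cebpb had 5.51, 0.667 and 0.362 CPM in WT and 9.53, 3.71 and 2.87 in R255K cells, a difference of 2.08 (0.76 to 3.39). Jun had 2.87, 0.133 and 0 CPM in WT and 10.996, 1.51 and 0.532 in R255K cells. No ratio is given for it, since it had 0 counts at 8 h in WT cells. Across the 9 genes of the AP-1 and immediate early list, the median 8 h ratio was −3.96 in WT cells, or −3.85 with Jun at the bound that 3 counts would give, and −3.15 in R255K cells. All 9 were over 2-fold lower in WT cells and 8 in R255K cells.

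Sox2 fell steeply in both genotypes, with 473, 32.9 and 21.3 CPM in WT and 375, 26.5 and 15.2 in R255K cells, a difference of −0.15 (−0.39 to 0.09), or −0.64 (−0.88 to −0.40) under TMM, where it lies past 1.5-fold. Sox12 did not. It had 104.3, 67.9 and 35.5 CPM in WT cells and stayed level in R255K cells with 73.1, 65.5 and 69.9, a difference of 1.49 (1.30 to 1.67). Sox11 lay between them, with 46.8, 12.4 and 5.79 CPM in WT and 47.4, 19.4 and 14.1 in R255K cells. Sox1 was already far lower in R255K cells at 0 h, with 8.50 CPM against 64.8 in WT cells, and fell steeply in both. All 7 Sox genes were over 2-fold lower at 8 h in WT cells, or 6 under TMM, where Sox12 had −0.96, and 5 of them in R255K cells.

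The Frizzled receptors were all over 2-fold lower at 8 h in both genotypes, 5 of 5 tested. Fzd2, whose peaks were both lost, had 15.8, 2.67 and 1.23 CPM in WT and 71.3, 38.3 and 30.6 in R255K cells, so that it started higher and fell less there, with a difference of 2.42 (1.71 to 3.13). Fzd7 had 133, 13.3 and 8.25 CPM in WT and 130, 20.9 and 13.0 in R255K cells, a difference of 0.68 (0.34 to 1.01), or 0.19 (−0.15 to 0.52) under TMM. Pou3f1 had 21.4, 1.27 and 0.145 CPM in WT and 86.3, 14.7 and 9.89 in R255K cells. Its WT value at 8 h rests on 2 counts, and the difference of 3.76 has an interval of 1.957 to 5.57. Among the strongest peaks, Otud1 fell in both genotypes, from 16.4 to 0.579 CPM in WT and from 10.6 to 0.266 in R255K cells.

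Other host genes with peaks fell little or had higher CPM after transcription was blocked. Ndn had 11.1, 10.7 and 11.2 CPM in WT and 43.1, 46.0 and 46.4 in R255K cells, higher in the mutant at every time. Hist1h1c had 9.30, 9.01 and 10.1 CPM in WT and 24.5, 21.7 and 27.002 in R255K cells, under the limit of mRNA libraries given above for histone RNA. Ubqln2, which kept 2 of 3 peaks and lost the strongest, went from 122 to 87.7 CPM in WT and stayed between 120 and 131 in R255K cells, and its WT log2 ratio of −0.48 turned to 0.12 under TMM. Malat1 had higher CPM at 8 h than at 0 h in both genotypes, from 101 to 194 in WT and from 35.5 to 198.5 in the mutant. Neat1 did fall, from 81.4 to 38.2 and from 7.99 to 4.89, with log2 ratios of −1.09 and −0.71, or −0.50 and −0.60 under TMM. The ribosomal RNA mt-Rnr1, transcribed by the mitochondrial polymerase, went from 94.2 to 1021 CPM in WT and from 111 to 580 in R255K cells.

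**Figure D5:**
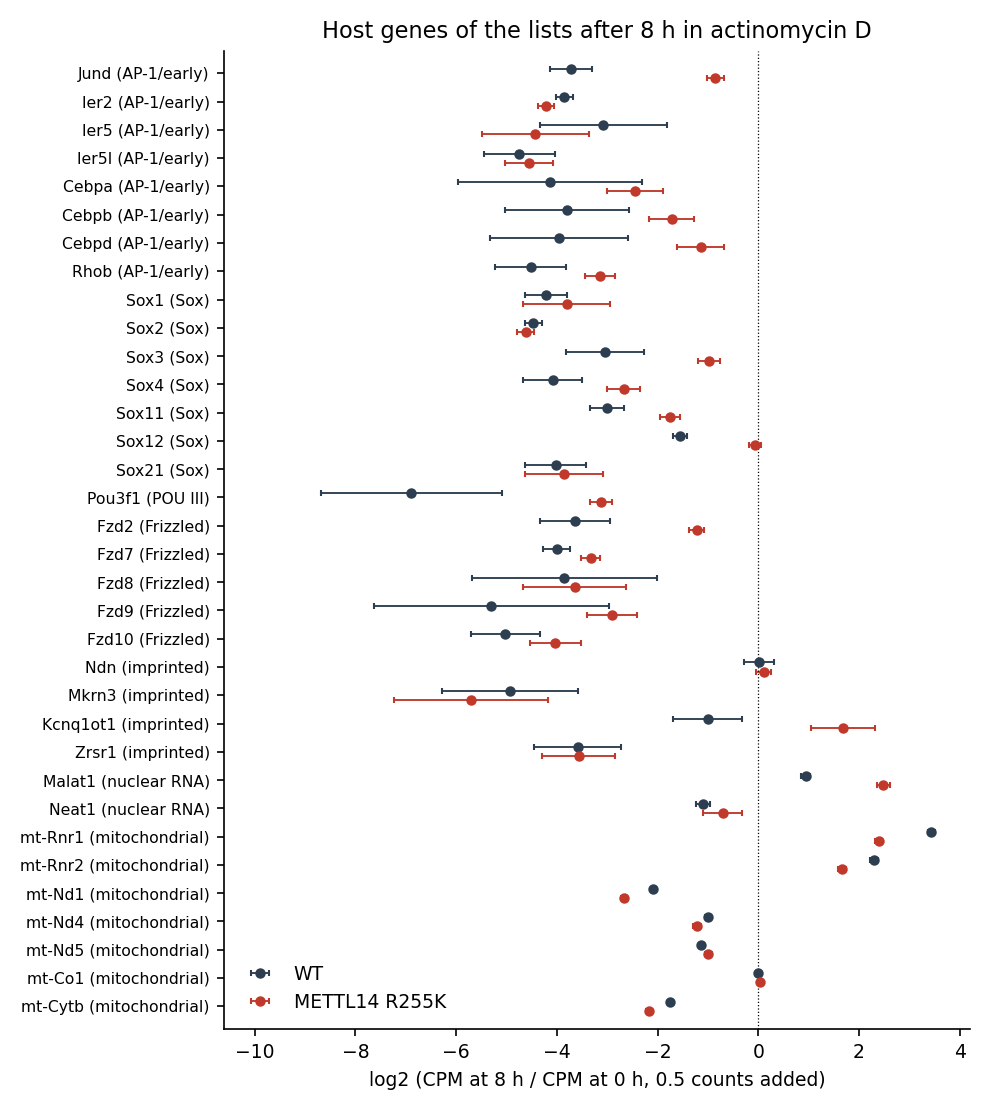
Log2 ratio of CPM at 8 h to 0 h with 0.5 counts added (horizontal axis) for host genes of 7 gene lists (vertical axis), in WT (dark) and METTL14 R255K cells (red), 1 library per genotype and time. Bars are 95% intervals from counting error only, and Jun is left out because it had 0 counts at 8 h in WT cells; on this scale Sox2, Ier2 and Ndn differ by −0.15, −0.36 and 0.09 between genotypes, while Jund, Sox12, Fzd2 and Kcnq1ot1 lie farther to the right in R255K cells.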

How the data were processed

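MeRIP-seq was made from 2 IP and 2 input libraries per genotype and RNA decay from 6 actinomycin D libraries. The authors discarded reads on rRNA with Bowtie2 2.2.6, aligned the rest to mm10 with HISAT2, kept unique reads with Picard 2.16.0 and SAMtools 0.1.09, and called peaks with MACS2. In the deposited peak lists the fold enrichment is the ratio of IP to local background at the summit, and the −log10 q is that of MACS2. The deposited counts are whole reads per gene without normalization. The counting tool, its annotation and how replicates entered the peak calls are not given in the sources used here.

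The peaks were joined to the merged exons of the count table and, for gene type, coding sequence and stop codons, to GENCODE vM21 (386 host genes by name, 26 by position). For 6 host genes vM21 gives several merged exons. Motifs were sought in mm10 within 100 bp of the summit with pysam 0.24.0. Long internal exons are those over 400 bp. Shares carry 95% Wilson intervals, their differences Newcombe intervals, and medians order-statistic intervals. Counts were scaled to CPM, with 0.5 counts added before log2. TMM factors from edgeR 4.0.16 and size factors from DESeq2 1.42.0 in R 4.3.3 served as alternative scalings only. Python 3.11.15 was used with pandas 2.3.3, numpy 2.4.6, statsmodels 0.14.6, scipy 1.17.1 and, for plots, matplotlib 3.10.9. The decay script was tested on simulated data. Depth per RNA library was 13812160 to 18813640 counts.

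Named are the 12 strongest peaks on protein-coding genes, peaks on genes of 12 lists (up to 6 per list by q), the 5 leading lost peaks by fold enrichment and by q, the 3 strongest of each other gene type, and the 5 genes with most peaks. The rule also picks 1 gene that is not reported here. The peaks, the lists and the tests were chosen with earlier results of these data known. No comparison had replicates, so no p-value is given.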

Additional observations from a re-analysis of the deposited data

Results flagged for a closer look

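Among the named host genes, Kcnq1ot1 moved in opposite directions in the 2 genotypes at both times after transcription was blocked. Its log2 ratio of CPM at 8 h to 0 h was −1.005 in WT cells and 1.68 in R255K cells. Its level was 3.39, 1.27 and 1.67 CPM at 0, 4 and 8 h in WT and 1.53, 10.97 and 5.00 in R255K cells, which rest on 59, 19 and 23 counts and on 24, 204 and 94 counts, respectively. The WT fall has a counting interval clear of 0 (−1.69 to −0.32) on CPM only. Under TMM it was −0.41 (−1.10 to 0.28) and under DESeq2 size factors −0.25 (−0.94 to 0.44), and the R255K values were 1.79 and 1.90. Each value is 1 library, so the difference between the genotypes was not tested. The merged exon of this gene is 84395 bp long and lies within the span of Kcnq1, which it opposes on the other strand, and the counts of the 2 cannot be told apart without strand.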

How the results depend on the processing

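No paired analysis was possible because there was 1 peak list per genotype and 1 RNA library per genotype and time. Of 66 repeats under another setting, 48 stayed within the counting interval of the reported value or within 1.5 times the reported count, and none reversed a direction. The 48 include the TMM and DESeq2 repeats of host gene decay and of the 0 h level. These could not differ, because scaling cancels in a gap between host genes and all genes. The kept share of 56.2% became 46.3% when at least 50% of a WT peak had to be covered, 60.5% when the −log10 q had to reach 5, 68.4% on protein-coding host genes and, chosen after seeing the data, 65.9% on host genes with 20 counts or more in WT at 0 h. Its difference from last-exon peaks, 4.64 percentage points, was 13.8 and 12.02 in the 2 middle classes of strength. The median fold enrichment was 8.41 on protein-coding host genes. The share with GGAC was 63.5% within 50 bp, 44.9% on the opposite strand and 82.5% on protein-coding host genes. The decay of host genes relative to all genes, −2.31 in WT and −1.08 in R255K cells, was −1.73 and −0.85 without a count filter, −1.77 and −0.74 at 4 h and −1.30 in R255K cells for protein-coding genes. From 4 to 8 h, which leaves out both 0 h libraries and was chosen after seeing the data, it was −0.37 and −0.23, with a difference of 0.19 in place of 0.75. The cause was not tested. Removal of the GC trend, also chosen after seeing the data, left the difference at 0.71. With genes at 0 counts at 8 h set at the bound of 3 counts, the median R255K minus WT difference of host genes was 1.198 in place of 1.26. Without replicates no result has an error between cultures, the depth behind the peak lists is unknown, and 174 of the peaks lie on genes with under 20 counts in WT at 0 h, where decay was not measured.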

Other observations

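The direction seen for Kcnq1ot1, a fall in WT and a rise in R255K cells at both 4 and 8 h with counting intervals at 8 h clear of 0 on CPM, was shared by 3 more of the 235 host genes, and the reverse was seen in 0. These 3 were named after their values were seen. How many of all 12321 genes tested show either pattern was not counted. On CPM the 8 h ratio was over 1.5-fold higher in R255K cells for 47.3% of all genes and over 1.5-fold lower for 7.39%. The 4 host genes against 0 are thus not a trait shown to be particular to host genes. Purb, which encodes a protein that binds purine-rich DNA and RNA, had log2 ratios at 8 h of −2.06 in WT and 0.46 in R255K cells, from 123, 57.7 and 29.6 CPM in WT and 55.5, 84.1 and 76.3 CPM in R255K cells. Its WT value was −1.46 under TMM and −1.31 under DESeq2 size factors. Gtsf1l had −0.86 and 0.52, but its WT value was −0.27 (−0.54 to 0.0043) under TMM and −0.11 (−0.39 to 0.16) under DESeq2 size factors. Rraga, a small GTPase that links amino acids to mTOR signalling, had −0.57 and 0.29, and its WT value turned to 0.026 under TMM and 0.18 under DESeq2 size factors, so its opposite direction depends on the scaling.

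Ankrd49, which encodes an ankyrin repeat protein, kept all 3 of its peaks and went from 19.3 to 1.38 CPM between 0 and 8 h in WT cells, but only from 6.07 to 3.19 CPM in R255K cells. The pseudogene AA414768 carried one of the highest fold enrichments of all single-exon genes, 34.7 in WT and 41.7 in R255K cells, and its transcript changed little at 8 h, by −0.36 in WT and −0.31 in R255K cells on CPM and by 0.24 and −0.20 under TMM.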
